A study of Danio rerio with 8 samples.

Results

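The genes described here encode the filaments of the cardiac sarcomere and the discs that anchor them. A gene was included where its Ensembl symbol, in capitals or not, began with ttn, tnnt, tnni, tnnc, tpm or myl followed by a digit, mybpc, myom, obsc, actn followed by a digit, ldb3, myoz, tcap, nebl, lmod, tmod, cmlc1, smyd1 or csrp3, and where it had at least 1 CPM (the value scaled to the library total) in at least 2 of the 8 libraries. Myosin heavy chains and actins were left out of the list. This gave 50 members of 13895 genes tested. A further 31 genes had a matching symbol and did not pass the filter, 16 of which were listed at 0 in every library. Of the 50 members, 36 passed 1 CPM in all 8 libraries and 14 in fewer. Among those 14, 4 passed in *tbx5a*- libraries alone and 2 in *tbx5a*+ libraries alone.

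Cardiomyocytes were sorted from ventricles of adult zebrafish, aged 6 to 9 months, that carried the reporters *tbx5a:GFP* and *myl7:nuc-dsRed*. The *myl7* promoter drives nuclear dsRed in cardiomyocytes, so both sorted populations were nuc-dsRed+. GFP marks cells in which the *tbx5a* reporter is active, and GFP+ cells were taken as *tbx5a*+ and GFP- cells as *tbx5a*- cardiomyocytes, with neither treatment nor injury in either population. Each of 4 replicates (labelled 2, 8, 9 and 10) pooled 5 hearts, and each population had 1 library per replicate. The 8 libraries were taken as 4 pairs by their replicate number. That both libraries of a number came from the same pool of hearts is read from these labels. Libraries were made from 0.6 ng of total RNA and sequenced as 60-base single reads. The comparison asks how cardiomyocytes inside and outside the *tbx5a* domain of the adult ventricle differ.

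A sarcomere shortens when thick filaments of myosin pull on thin filaments of actin. On the thin filament, calcium binds troponin C, troponin I and troponin T pass the change on, and tropomyosin moves away from the myosin-binding sites. Titin spans from the Z-disc, where alpha-actinin crosslinks the thin filaments, to the M-band, where myomesin crosslinks the thick filaments. Zebrafish carry duplicated copies of many of these genes, and the cardiac, slow skeletal and fast skeletal muscles use different copies.

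The deposited values are normalized expression values and not counts. In each library the low values stepped by the value of 1 read, which gave 7149239 to 9491526 estimated reads per library. *tbx5a*+ libraries had 13706 to 14983 genes above 0 and *tbx5a*- libraries had 11329 to 13793, the fewest in the *tbx5a*- libraries of replicates 9 and 2. *tbx5a* itself, the gene of the reporter, was at 3197 to 4919 in *tbx5a*+ and at 90.5 to 442 in *tbx5a*- libraries. Of 12 cardiomyocyte marker genes, 4 of them members, all passed the filter, and their summed value was 358822 to 409268 in *tbx5a*+ and 346128 to 421762 in *tbx5a*- libraries. *MYL7* and *TNNT2*-20610 made up much of it. *vmhc*, a myosin heavy chain gene on the same marker list, passed the test as higher in *tbx5a*- cardiomyocytes, at 3205 to 4924 in *tbx5a*+ and 9488 to 32219 in *tbx5a*- libraries, the highest in replicates 9 and 2. Of 31 skeletal muscle marker genes, 12 were listed at 0 in all libraries and 14 were tested, of which 0 passed the test. The summed value of the 31 was 38907 to 61471 in *tbx5a*+ and 36318 to 53674 in *tbx5a*- libraries. Much of it came from *ckma*, at 15238 to 23355 and 12183 to 18048, and from an *ACTA1* gene (ENSDARG00000055618), at 18854 to 29298 and 16935 to 24098. Values are not divided by gene length, so they are compared between libraries and not between genes.

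None of the 50 members passed the test between the populations, which was limma on log2(value + 1) and asked for a *p* of at most 0.05 after Benjamini–Hochberg adjustment together with a 2-fold difference. Across all tested genes the test called 27, or 0.194%, a share to which that of the members is near. With the pair as a block, 0 of 50 members passed against 0.417% of all genes, and with limma-voom on estimated reads 0 of 50 passed against 0.173%. At an unadjusted *p* under 0.05, 1 member was higher in *tbx5a*+ cardiomyocytes, where 4.62% of all genes were, and 5 were higher in *tbx5a*- cardiomyocytes, where 2.44% of all genes were. This split changed with the fit: the block gave 7 (6.28% of all genes) and 6 (2.95%), limma-voom 7 (5.2%) and 4 (2.32%), and leaving out replicates 2 and 9 of the *tbx5a*- cells 1 (3.6%) and 0 (2.09%). The last of these fits has fewer libraries and was chosen after the data were seen. *tpm1*, among the 5 by limma, passed the filter through *tbx5a*- libraries alone. Log2 fold changes, given with their standard error (SE) and positive where *tbx5a*+ cardiomyocytes had more, were above 0 for 28 members and below 0 for 22. Their median was 0.07, and that of all tested genes was 0.20. The medians depended on level. At a mean of 1000 or more, they were 0.09 for the members and 0.12 for all tested genes. At a mean of 100 to 1000 they were -0.07 and 0.08, and at a mean under 100 they were -0.05 and 0.34. The added 1 draws the fold changes of low genes towards 0.

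**Figure D1:**
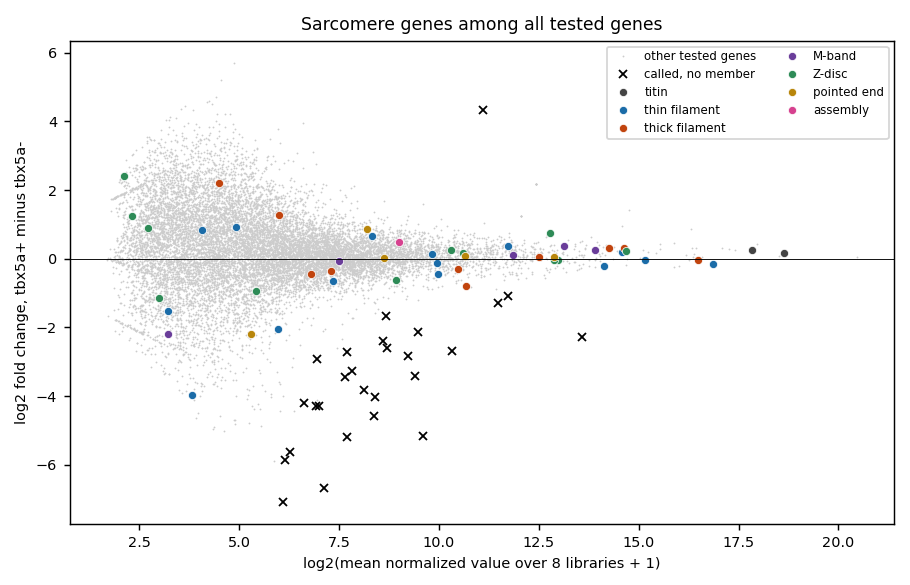
Log2 fold change of each tested gene (*tbx5a*+ minus *tbx5a*-, y axis) against its level (log2 of the mean normalized value over 8 libraries + 1, x axis), with the 50 members coloured by role and the called genes outside the list as crosses. Members of high level lie close to 0 and none of the 50 passed the test.

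Differences were bounded more narrowly for members of high level. Of the 25 members with a mean value of 1000 or more, 23 had a 95% interval of the log2 fold change that lay within 1 of 0 on either side, that is, within 2-fold in both directions. This was 92% of them, and 88.56% of the 743 tested genes of that level. The other two were *tcap*, with an interval of 0.26 to 1.22, and *myl9a*, with an interval of -1.33 to -0.24. Of 11 members with a mean of 100 to 1000, 4 had such an interval (41.1% of all genes of that level), and of 14 members with a mean under 100 none had one (0.042%). All 10 members with a fold change of at least 1 in size on the log2 scale were among these 14, where the fold change of a gene at 0 in some libraries depends on the added 1. Such fold changes were seen in 30.4% of all genes.

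**Figure D2:**
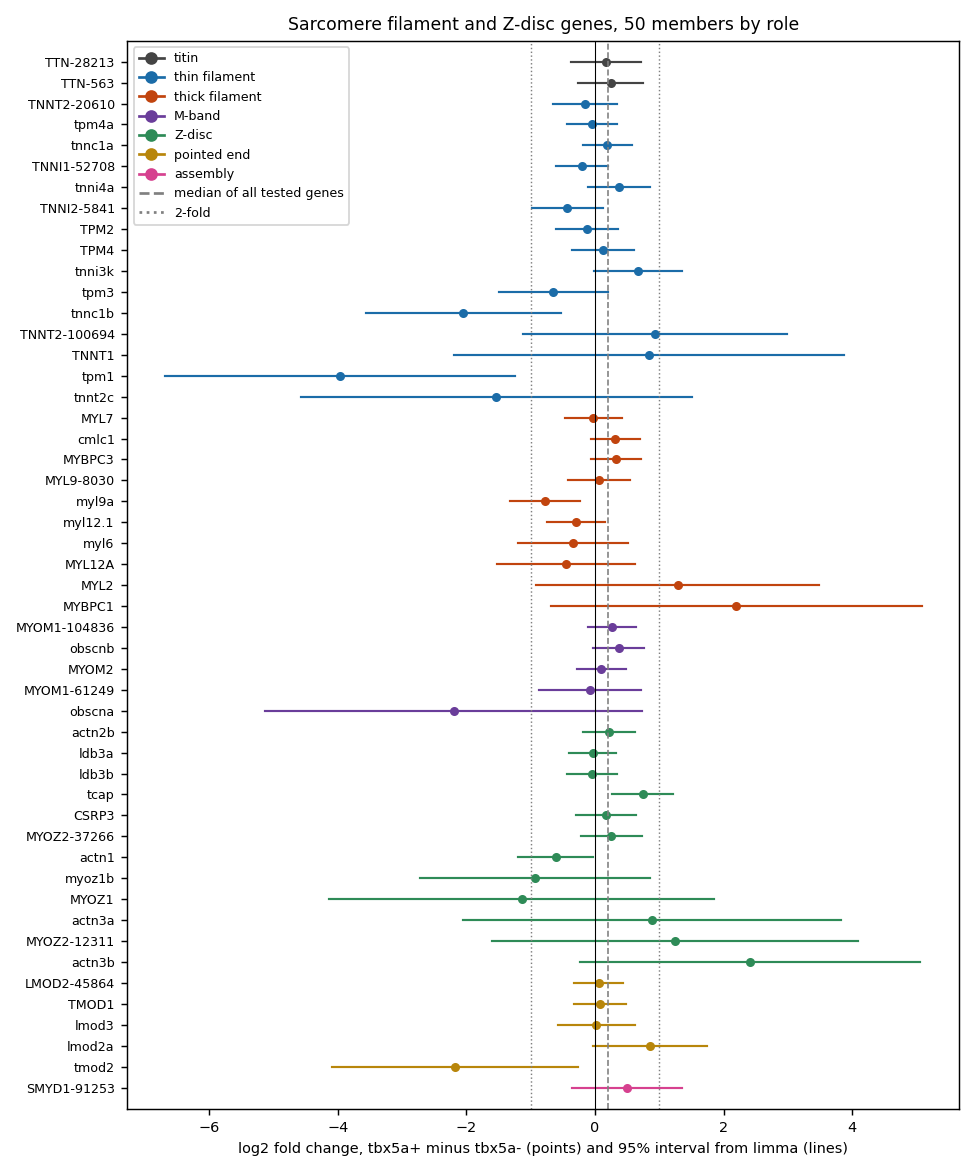
Log2 fold change (*tbx5a*+ minus *tbx5a*-, points) of the 50 members with the 95% interval by limma (lines), grouped by role and ordered by level within it; the dotted lines mark 2-fold and the dashed line the median of all tested genes, 0.20. The intervals of the abundant members at the head of each role are narrow and lie around 0, and those of the low members span several log2 units. For all tested genes with a mean of 1000 or more, the median was 0.12.

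Means are given ± SD over the 4 libraries of a population. The members took 12.8% ± 1.43 of the summed value of a *tbx5a*+ library and 12.7% ± 0.646 of a *tbx5a*- library. Titin made up most of it, at 7.79% ± 1.43 and 7.34% ± 0.713. These are shares of the summed value and not of transcripts, since values are not divided by gene length. The symbol *TTN* is borne by 2 genes, and like other genes that share a symbol they are told apart here by the last digits of their Ensembl identifiers. *TTN*-28213 (ENSDARG00000028213) was at 528910, 400438, 400592 and 397131 in the *tbx5a*+ libraries (replicates 2, 8, 9 and 10 in turn), and at 370842, 354878, 386476 and 417073 in the *tbx5a*- libraries in the same order. *TTN*-563 (ENSDARG00000000563) was at 293936, 238930, 253026 and 227191, and at 194493, 212990, 204076 and 245550. The *tbx5a*+ library of replicate 2 was the highest for both genes, the other libraries overlapped, and in replicate 10 the *tbx5a*- library was the higher one. The log2 fold changes were 0.17 (SE 0.27, adjusted *p* = 0.919 by limma) and 0.24 (SE 0.24, adjusted *p* = 0.843). *TTN*-28213 took 63.0% ± 1.3 of the titin value in *tbx5a*+ and 64.1% ± 1.63 in *tbx5a*- libraries, a difference smaller than the SD. The genes are paralogs, and how the counting divided reads between them is uncertain.

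Among the thin filament genes, the abundant cardiac forms differed little between the populations. The cardiac troponin T gene *TNNT2*-20610 (ENSDARG00000020610) was at 112615 ± 29932 in *tbx5a*+ and 124238 ± 20984 in *tbx5a*- cardiomyocytes, with a log2 fold change of -0.16 (SE 0.24). It took at least 99.9% of the troponin T value in each library. The tropomyosin gene *tpm4a* (ENSDARG00000023963) was at 35933 ± 3574 and 36930 ± 2123, a log2 fold change of -0.04 (SE 0.19), and held 94.1% to 95.5% of the tropomyosin value in *tbx5a*+ and 94.0% to 95.3% in *tbx5a*- libraries. Both genes had overlapping libraries and were higher in *tbx5a*+ cells in 2 of 4 pairs. The troponin C gene *tnnc1a* (ENSDARG00000011400), which encodes the calcium sensor of heart muscle, was at 26267 ± 2428 and 22942 ± 1334. It was higher in *tbx5a*+ cells in 4 of 4 pairs in the deposited scaling, and its log2 fold change was 0.19 (SE 0.18, adjusted *p* = 0.838 by limma).

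The second troponin C gene, *tnnc1b* (ENSDARG00000037539), was a minor form in these cells and had the opposite sign. It was at 28.75, 17.67, 44.93 and 7.53 in the *tbx5a*+ libraries (replicates 2, 8, 9 and 10 in turn), and at 128.3, 74.6, 147.01 and 42.94 in the *tbx5a*- libraries. Each *tbx5a*- library was above the *tbx5a*+ library of its pair, and the populations overlapped only in that the lowest *tbx5a*- library, of replicate 10, was just under the highest *tbx5a*+ library, of replicate 9. The differences within the pairs were -2.12, -2.02, -1.69 and -2.36 on the log2 scale, and the log2 fold change was -2.05 (SE 0.74). It did not pass the test (adjusted *p* = 0.567 by limma, 0.302 with the block). These values came from 101 estimated reads over the *tbx5a*+ and 364 over the *tbx5a*- libraries. The gene took 0.0963% ± 0.0688 of the troponin C value in *tbx5a*+ and 0.431% ± 0.219 in *tbx5a*- libraries, so *tnnc1a* made up nearly all of it in both.

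*tpm1* (ENSDARG00000087402), a tropomyosin gene, was near 0 in *tbx5a*+ cardiomyocytes. It was at 1.03, 0, 0 and 0.94 in the *tbx5a*+ libraries and at 36.19, 7.16, 43.87 and 16.32 in the *tbx5a*- libraries, in that order of replicates. The populations did not overlap, which was so with *tbx5a*- cells higher for 2 members, *tpm1* and *tmod2*, and for 1.65% of all genes. *tpm1* passed 1 CPM in 0 *tbx5a*+ and 3 *tbx5a*- libraries, so it is a member only through the population where it is high. Its lack of overlap and its ratio are therefore descriptions and not tests. It was counted from 2 estimated reads in *tbx5a*+ and 96 in *tbx5a*- libraries, and the ratio of reads, scaled between libraries as the deposited values are, was 50.5 with an exact 95% interval of 13.6 to 423 that covers counting error alone. The fold change of -3.97 on the log2 scale (SE 1.32) did not pass the test (adjusted *p* = 0.506 by limma, 0.32 with the block). Its 60-base reads can fall on sequence shared with other tropomyosin genes. Without replicates 2 and 9 of the *tbx5a*- cells it did not pass the filter. Its share of the tropomyosin value in *tbx5a*- libraries was 0.0187% to 0.105%.

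The inhibitory subunit troponin I was counted from 3 genes. *TNNI1*-52708 (ENSDARG00000052708) took 77.5% ± 7.30 of the troponin I value in *tbx5a*+ and 82.3% ± 4.26 in *tbx5a*- libraries, and *tnni4a* (ENSDARG00000099870) took 18.2% ± 5.93 and 12.8% ± 4.55, with overlapping libraries. *TNNI2*-5841, whose symbol is that of a fast skeletal form, took 2.34% to 6.91% and 4.06% to 6.41%. *tnni3k* was included by the letters of its name and encodes a kinase that binds cardiac troponin I, not a troponin. It was at 382 ± 88.5 in *tbx5a*+ and 253 ± 99.4 in *tbx5a*- cardiomyocytes. In the deposited scaling it was higher in *tbx5a*+ cells in 4 of 4 pairs (log2 fold change 0.66, SE 0.33, adjusted *p* = 0.716 by limma). Of the 15 genes grouped here with the thin filament, 6 had a log2 fold change above 0 and 9 below 0, with a median of -0.13.

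**Figure D3:**
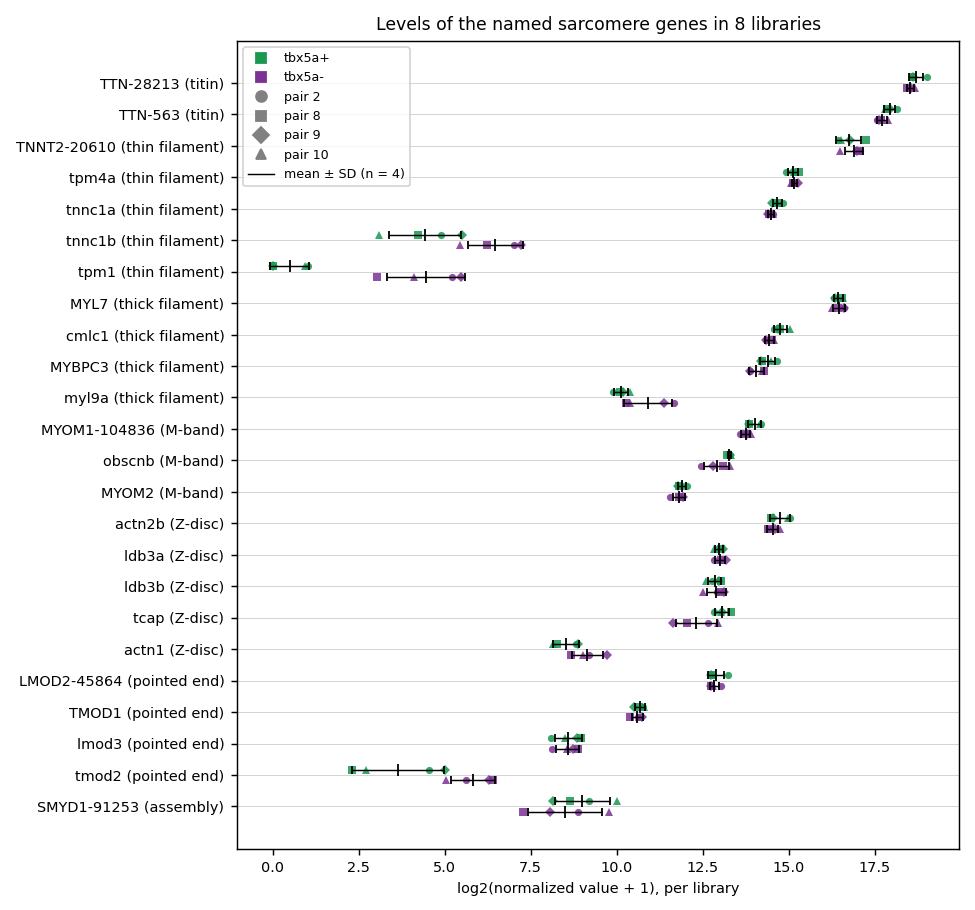
Level in each library (log2 of the normalized value + 1, x axis) of 24 named members, with *tbx5a*+ libraries in green and *tbx5a*- libraries in purple, symbols for the pair, and the mean ± SD of 4 libraries as black bars. The libraries of the 2 populations lie over each other for most of the abundant members, and those of *cmlc1*, *tpm1* and *tmod2* do not overlap.

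On the thick filament, *MYL7* (ENSDARG00000019096), the regulatory light chain gene whose promoter drives the sorting reporter, was at 89973 ± 8800 in *tbx5a*+ and 91813 ± 10668 in *tbx5a*- cardiomyocytes. Its log2 fold change of -0.03 (SE 0.21) reached 0.001 when libraries were scaled to equal upper quartiles. The essential light chain gene *cmlc1* (ENSDARG00000032976) was at 24446.5, 27636.5, 26403.2 and 33441.1 in the *tbx5a*+ libraries (replicates 2, 8, 9 and 10 in turn), and at 20853.3, 23672.3, 20721.8 and 24231.5 in the *tbx5a*- libraries. All *tbx5a*+ libraries were above all *tbx5a*- libraries, by a narrow margin between the lowest and the highest of them. This was so for 1 member with *tbx5a*+ cells higher and for 2.32% of all genes. The log2 fold change was 0.32 (SE 0.19) with a 95% interval of -0.07 to 0.70 from the fit that sets the pairs aside. The differences within the pairs were 0.23, 0.22, 0.35 and 0.46 on the log2 scale. It did not pass the test (adjusted *p* = 0.748 by limma, and 0.501 with the block, where the unadjusted *p* was 0.033). Within a library, where scaling does not enter, *cmlc1* took 22.1% ± 1.1 of the light chain value in *tbx5a*+ and 18.2% ± 3.11 in *tbx5a*- libraries, and here the libraries overlapped, since the *tbx5a*- library of replicate 10 reached 21.7%.

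*MYBPC3* (ENSDARG00000011615), which encodes the cardiac myosin-binding protein C, was at 21664 ± 3354 in *tbx5a*+ and 17291 ± 2601 in *tbx5a*- cardiomyocytes, with overlapping libraries and a log2 fold change of 0.32 (SE 0.19, adjusted *p* = 0.748 by limma). *MYL2*, with the symbol of the ventricular light chain of mammals, was at 63.4 ± 19.5 and 62.0 ± 53.7. The remaining light chains carry the symbols of smooth muscle and non-muscle forms. Among them *myl9a* (ENSDARG00000038123) was at 949.89, 1090.54, 1172.07 and 1332 in the *tbx5a*+ libraries (replicates 2, 8, 9 and 10 in turn), and at 3257.88, 1247.74, 2642.68 and 1331.17 in the *tbx5a*- libraries. The *tbx5a*- libraries of replicates 2 and 9 were above all others, and those of replicates 8 and 10 were within the upper part of the *tbx5a*+ range. Its log2 fold change was -0.79 (SE 0.26, adjusted *p* = 0.509 by limma, 0.14 with the block), and with replicates 2 and 9 of the *tbx5a*- cells left out it was -0.19. The other copy, *MYL9*-8030, was at 5884 ± 1510 and 5746 ± 1877, a log2 fold change of 0.06 (SE 0.23). How reads were divided between the copies is uncertain. Of the 10 members of the thick filament, 5 had a log2 fold change above 0 and 5 below, with a median of 0.02.

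Some markers of smooth muscle that are no members differed between the populations. Of 14 smooth muscle and mural marker genes, 9 were tested, 2 of which are members (*MYL9*-8030 and *myl9a*). The summed value of the 12 that are no members was 443 to 946 in *tbx5a*+ and 784 to 3124 in *tbx5a*- libraries, and 2 of them, *acta2* and *tagln*, passed the test as higher in *tbx5a*- cardiomyocytes. Of the 7 tested that are no members, 5 had a log2 fold change below 0 and 2 above, *CSPG4*, at 252 to 401 in *tbx5a*+ and 221 to 296 in *tbx5a*- libraries, and a second transgelin gene (ENSDARG00000033466), at 28.75 to 38.24 and 8.3 to 39.51. In the *tbx5a*- libraries, in the order of replicates 2, 8, 9 and 10, *acta2* was at 283.98, 110.67, 518.41 and 188.67. It was highest in replicates 9 and 2, as were *tpm1*, *tnnc1b*, *myl9a* and *actn1*, while *tmod2* was highest in replicate 8, at 83.8. On the cardiomyocyte list, *vmhc* was at 27884, 9488, 32219 and 13760 in these libraries. *xirp2a*, from the list of other sarcomere genes, was at 2589, 1970, 3050 and 1255. Both were highest in replicates 9 and 2, the *tbx5a*- libraries with the fewest genes above 0. Other cardiomyocyte markers were not, such as *nppb*, at 10329, 6205, 6497 and 10986. Of the other smooth muscle markers, *cnn1b* was at 0 to 47.03 in *tbx5a*+ and at 38.38 to 170.73 in *tbx5a*- libraries, and *notch3* at 0 to 15.3 and 0 to 60.47. The smooth muscle myosin *MYH11* (2 genes) was at 0 to 11.3 and 0 to 48.09, and *MYLK* (2 genes) at 0 to 0.96 and 0 to 11.86. *elnb* reached 4.11 in *tbx5a*+ libraries and was at 0 in *tbx5a*- libraries, and *ITGA8* was at 0 in all. The part of other cells in these differences was not tested, and in sorted pools fewer cells that express a gene and less RNA of it per cell cannot be told apart.

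In the M-band, *MYOM1*-104836 (ENSDARG00000104836), a myomesin gene, was at 16687 ± 2166 in *tbx5a*+ and 13895 ± 1257 in *tbx5a*- cardiomyocytes. *obscnb* (ENSDARG00000022101), which encodes the giant protein obscurin that links the M-band to the sarcoplasmic reticulum, was at 9952 ± 305 and 7901 ± 1956. Both were higher in *tbx5a*+ cells in 4 of 4 pairs in the deposited scaling, and neither passed the test. Their log2 fold changes were 0.26 (SE 0.18, adjusted *p* = 0.761 by limma) and 0.37 (SE 0.20, adjusted *p* = 0.723). *MYOM2* (ENSDARG00000075433) was at 3838 ± 318 and 3603 ± 408, with *tbx5a*+ cells higher in 2 of 4 pairs and a log2 fold change of 0.09 (SE 0.18) that fell just below 0 with scaling to equal totals. Of the 5 members grouped here, 3 had a log2 fold change above 0 and 2 below.

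At the Z-disc, *tcap* (ENSDARG00000007344), which encodes telethonin, the protein that joins the ends of titin, had the lowest adjusted *p* of the 50 members. It was at 7252, 10241.8, 8610.83 and 8382.38 in the *tbx5a*+ libraries (replicates 2, 8, 9 and 10 in turn), and at 6479.57, 4215.33, 3185.69 and 7897.68 in the *tbx5a*- libraries. The *tbx5a*- libraries of replicates 8 and 9 were the lowest, and that of replicate 10 lay above the lowest *tbx5a*+ library. The means were 8622 ± 1233 and 5445 ± 2137 and the log2 fold change was 0.74 (SE 0.23). The adjusted *p* was 0.443 by limma, 0.195 by limma-voom and 0.0686 with the block, and the change was under the 2-fold that a call needs. It was 0.51 without the *tbx5a*- library of replicate 9 and 0.95 without that of replicate 10. *tcap*, *myl9a* and *actn1* are described here because of their unadjusted *p*, after their values were seen.

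The alpha-actinin of heart muscle, *actn2b* (ENSDARG00000071090), was at 28213 ± 5613 in *tbx5a*+ and 24058 ± 2721 in *tbx5a*- cardiomyocytes, which gave a log2 fold change of 0.21 (SE 0.20). The LIM domain genes *ldb3a* (ENSDARG00000056322), at 8016 ± 648 and 8237 ± 818, and *ldb3b* (ENSDARG00000099974), at 7434 ± 1011 and 7729 ± 1380, which encode partners of alpha-actinin, had log2 fold changes of -0.04 and -0.05 (SEs 0.18 and 0.19). These 3 genes had overlapping libraries. *actn1* (ENSDARG00000007219), the non-muscle alpha-actinin, was at 453.71, 309.2, 474.78 and 284.08 in *tbx5a*+ and at 585.2, 407.06, 846.5 and 518.73 in *tbx5a*- libraries. It was higher in the *tbx5a*- library of each pair, with overlap across pairs, and its log2 fold change was -0.62 (SE 0.29, adjusted *p* = 0.701 by limma). With replicates 2 and 9 of the *tbx5a*- cells left out, the libraries where *actn1* was highest, its log2 fold change was -0.31. Its share of the alpha-actinin value was 1.37% ± 0.445 in *tbx5a*+ and 2.39% ± 0.707 in *tbx5a*- libraries. Of the 12 members of the Z-disc, 7 had a log2 fold change above 0 and 5 below, with a median of 0.19.

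At the pointed end of the thin filament, where tropomodulins cap actin and leiomodins lengthen it, *LMOD2*-45864 (ENSDARG00000045864) was at 7655 ± 1316 in *tbx5a*+ and 7324 ± 693 in *tbx5a*- cardiomyocytes, *TMOD1* (ENSDARG00000078318) at 1650 ± 160 and 1564 ± 160, and *lmod3* (ENSDARG00000062662) at 397.5 ± 103 and 389 ± 84.6. Their log2 fold changes were 0.05, 0.08 and 0.02, none larger than its SE, and each turned below 0 when libraries were scaled to equal totals. *tmod2* (ENSDARG00000002571, which bears the symbol TMOD3 in the Ensembl table) was at 22.59, 3.93, 31.55 and 5.64 in *tbx5a*+ and at 48.25, 83.8, 77.06 and 31.78 in *tbx5a*- libraries. All *tbx5a*- libraries were above all *tbx5a*+ libraries, though the lowest and the highest of them differed by less than 1 read's worth. The log2 fold change of -2.18 (SE 0.93) did not pass the test (adjusted *p* = 0.673 by limma, 0.492 with the block), and it rested on 65 and 228 estimated reads.

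*SMYD1*-91253 (ENSDARG00000091253), which encodes a methyltransferase needed to assemble myosin in zebrafish muscle, was at 592.52, 397.54, 282.02 and 1037.57 in *tbx5a*+ and at 469.33, 155.33, 269.13 and 875.99 in *tbx5a*- libraries. In the deposited scaling its *tbx5a*+ library was the higher of each pair, while the spread between pairs was larger than the difference within them. As a share of the library total, it was at 0.003118% in *tbx5a*+ and 0.003126% in *tbx5a*- cells of replicate 9. The log2 fold change was 0.50 (SE 0.42, adjusted *p* = 0.798 by limma). It was 0.094 without the *tbx5a*- library of replicate 8 and 0.161 without the *tbx5a*+ library of replicate 10, and reached 0.923 and 0.786 without the *tbx5a*- library of replicate 10 and the *tbx5a*+ library of replicate 9.

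**Figure D4:**
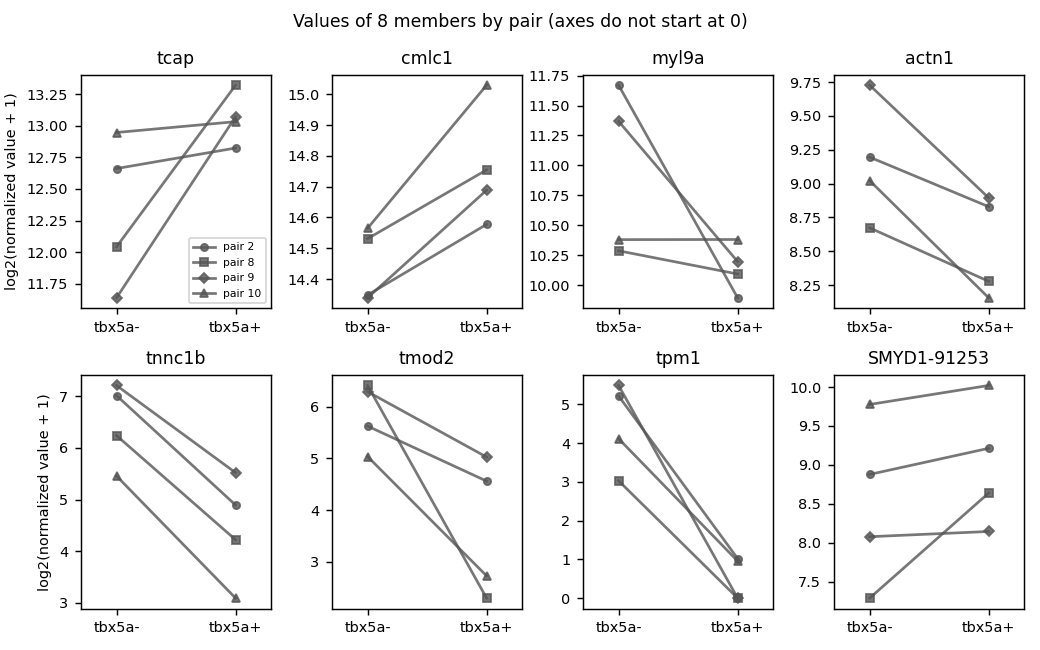
Values of 8 members (log2 of the normalized value + 1, y axis, not from 0) in the *tbx5a*- and the *tbx5a*+ library of each pair, joined by a line. In the deposited scaling, *tnnc1b*, *tmod2*, *tpm1* and *actn1* were lower in the *tbx5a*+ library in 4 of 4 pairs, and *tcap*, *cmlc1* and *SMYD1*-91253 were higher in 4 of 4.

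By pair, 8 members were higher in the *tbx5a*+ library in 4 of 4 pairs, where 9.54% of all genes were, and 5 were higher in the *tbx5a*- library in 4 of 4, where 5.38% of all genes were. The first were *MYOM1*-104836, *obscnb*, *tcap*, *MYOZ2*-37266, *SMYD1*-91253, *cmlc1*, *tnnc1a* and *tnni3k*, and the second *actn1*, *myoz1b*, *tmod2*, *tnnc1b* and *tpm1*, which passed the filter through *tbx5a*- libraries alone. Of the 25 members with a mean value of 1000 or more, 6 were among the first (24%, against 25.3% of all genes of that level) and 0 among the second (against 5.52%). The median difference over the members was 0.00, 0.09, -0.04 and 0.01 in the pairs 2, 8, 9 and 10. These counts and differences use the deposited scaling. The summed value was higher in the *tbx5a*+ library of each pair, at 8293880, 9128560, 9044780 and 8928680 in this order. The *tbx5a*- libraries were at 7839500, 8226560, 8610480 and 7904400. Differences in the *tbx5a*+ direction that are smaller than those of the totals change sign with scaling to equal totals. Each member higher in the *tbx5a*+ library in 4 of 4 pairs, except *cmlc1*, had such a difference in some pair. That of *tcap* was 0.086 in pair 10, and that of *MYOM1*-104836 was 0.116 in pair 8.

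Most genes with a symbol of fast skeletal muscle did not pass the filter. Besides *TNNI2*-5841, *actn3a*, *actn3b*, *MYOZ1* and *myoz1b* passed it at low level. Their means were 7.81, 6.61, 1.95 and 29.0 in *tbx5a*+ and 3.38, 0, 12.1 and 54.3 in *tbx5a*- cardiomyocytes. *actn3b* passed through *tbx5a*+ libraries alone and *MYOZ1* through *tbx5a*- libraries alone. Both *TNNT3* genes, both *MYL11* genes, 5 further genes that bear the symbol *TNNI2*, *MYBPC2* and *mybpc2b* were listed at 0 in all 8 libraries. The other 15 genes with a matching symbol that did not pass the filter reached at most 0.94 to 47.8, the highest being *TMOD4* in 1 library. *nebl*, the gene of nebulette, was at 0.96 in 1 library and at 0 in the others.

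Other genes of the sarcomere and its attachments, from a list of 54 symbols outside the members, gave 41 tested genes. Of these, 1 passed the test, where 0.194% of all genes did, and it was lower in *tbx5a*+ cardiomyocytes. It was *xirp2a*, whose product binds actin at the junctions between cardiomyocytes, at 161.82, 438.91, 461.98 and 347.55 in *tbx5a*+ and at 2589.22, 1969.81, 3050.21 and 1254.93 in *tbx5a*- libraries (log2 fold change -2.68, adjusted *p* = 1.6e-05 by limma). The study had reported *xirp2a* as a marker of *tbx5a*- cardiomyocytes from these same libraries. By immunofluorescence it also found the protein in cortical and not in trabecular myocardium of uninjured hearts. Because the list was chosen with earlier results known, its share of called genes is a description and not a test. At an unadjusted *p* under 0.05 by limma, 4 of the 41 were higher and 2 lower in *tbx5a*+ cardiomyocytes, where 4.62% and 2.44% of all genes were. The median log2 fold change of the 41 was 0.06.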

How the data were processed

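Each of the 8 libraries was placed in its population and pair by the sample labels. Per the study's methods, adaptors were removed with cutadapt and reads were quantified per gene with RSEM. According to the submitters' notes on processing, the versions were CASAVA 1.8.2 and RSEM 1.2.3 with the build Zv9. The methods give a later RSEM version and a later gene build, and the sources used here do not settle which made the table. Nor do they give whether counting used strand. The deposited table gives, for each gene and library, a signal that the authors had normalized, not counts. Values below 60 were within 0.0051 of a whole multiple of the library's value of 1 read for 70.6% to 77.0% of genes, so counts could not be restored, and estimated reads are the value divided by that step. Intervals from them cover counting error only, because amplification copies molecules.

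The design allowed for counts or normalized values and named limma for the latter. Genes with at least 1 CPM in 2 libraries were kept (13895 of 31388) and limma 3.58.1 (R 4.3.3) was run over all of them on log2(value + 1), with a variance trend. Other steps used scipy 1.17.1, pandas 2.3.3 and numpy 2.4.6 under Python 3.11.15. The fit was tested on simulated data. Symbols came from a table of Ensembl gene symbols, which named 13000 of the tested genes. Symbols in capitals are those of the human match, and lower-case names of the study's own list were preferred. The members and lists were chosen with earlier results of these data known.

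Named genes were those called, those with an unadjusted *p* under 0.05 and a 2-fold difference, the 3 of highest mean in each role, and those without overlap between populations. This gave 21, and 3 more were added after their values were seen. The libraries were paired by the replicate number in their labels, each number occurring in both populations. Deviations from the group means correlated between paired libraries, across genes, at 0.0428 to 0.089, and each library correlated best with its own number. Alternatives were the pseudocount, the filter, the scaling, limma-voom, robust variance estimates, the replicate block and leaving out libraries. Nothing was printed from sequences or coordinates.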

Additional observations from a re-analysis of the deposited data

Results flagged for a closer look

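In 4 of 48 groups of 4 libraries tested over the named members, 1 library stood apart from the other three by a gap above the 95% critical value of Dixon's test, which chance gives in about 1 in 20 groups. *TTN*-28213 reached 528910 in replicate 2 of *tbx5a*+ cardiomyocytes, where the other *tbx5a*+ libraries were at 397131 to 400592. *LMOD2*-45864, the leiomodin gene, was highest in both libraries of replicate 2, at 9612 in *tbx5a*+ and 8353 in *tbx5a*- cardiomyocytes. *TNNT2*-20610 was lowest, at 93218, in the *tbx5a*- library of replicate 10.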

How the results depend on the processing

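No member was called under any of the 18 alternatives, where the lowest adjusted *p* of a member (limma or limma-voom) was 0.0686 to 0.911. Of 430 values of the 24 named members, 407 kept their sign and 23 changed it, in 8 members, with 0 calls. Scaling to equal totals moved the median log2 fold change of all genes from 0.20 to 0.09 and that of the members to -0.049, and gave -0.025 for *MYOM2*, -0.066 for *LMOD2*-45864, -0.042 for *TMOD1* and -0.101 for *lmod3*. Upper quartile scaling gave 0.001 for *MYL7*. With the replicate block, which keeps the pairing, 19 genes were called higher in *tbx5a*+ cardiomyocytes in place of 1, and 7 members in place of 1 had an unadjusted *p* under 0.05 in that direction (6.28% of all genes). Pseudocount 5, limma-voom and robust variance estimates each called 3 genes in that direction. The members with an unadjusted *p* under 0.05 and higher in *tbx5a*+ cells were 2 with pseudocount 5 (4.53% of all genes), with no filter (3.57%) and with upper quartile scaling (4.94%), 7 with limma-voom (5.2%) and 5 with robust estimates (4.62%).

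Without the *tbx5a*- libraries of replicates 2 and 9, an alternative chosen after seeing the data, 5 genes were called higher in *tbx5a*- cells in place of 26, and 0 members in place of 5 had an unadjusted *p* under 0.05 in that direction (2.09% of all genes). With fewer libraries this fit has less power. The libraries left out were also those where *tpm1*, *tnnc1b*, *myl9a* and *actn1* were highest. It therefore cannot show whether the differences rest on these libraries. The medians were then 0.123 for the members and 0.036 for all genes, and the log2 fold changes were 0.078 for *ldb3b*, -0.128 for *lmod3*, 0.11 for *MYL7* and 0.017 for *tpm4a*; *tpm1* no longer passed the filter. With each library left out in turn, 1 to 8 genes were called higher in *tbx5a*+ and 18 to 25 in *tbx5a*- cells. At an unadjusted *p* under 0.05, 1 to 5 members were higher in *tbx5a*+ cells (2.66% to 7.4% of all genes). In the other direction 3 to 6 members were (1.86% to 3.16% of all genes). Over these fits the log2 fold changes were -0.099 to 0.019 for *ldb3a*, -0.18 to 0.035 for *ldb3b*, -0.061 to 0.118 for *LMOD2*-45864, -0.135 to 0.187 for *lmod3*, 0.094 to 0.923 for *SMYD1*-91253, -0.1 to 0.02 for *MYL7* and -0.098 to 0.019 for *tpm4a*. The cause of these moves was not tested. For the 14 members with a mean under 100, a 2-fold difference was not bounded at this depth.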
